A study of Mus musculus with 6 samples.

Results

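C-DOM is the regulatory landscape on the centromeric side of the HoxD cluster. It was taken as chr2:73950000-74652990 of mm10, which is 703 kb from the left end of the studied locus to the base before Evx2, a homeobox gene next to Hoxd13. Its members were all regions of 8 peak lists that overlapped this interval, with rows of the same interval collapsed, and they numbered 279 of the 379158 regions of the 8 lists. The study asked how an enhancer of digit cells behaves when moved to another landscape. The wild type lists describe where such enhancers normally lie, in distal forelimb (DFL) and proximal forelimb (PFL) of E12.5 B6CBAF1 mouse embryos, which carried no mutation or treatment. There was 1 ChIP-seq library per mark and piece, for H3K27ac, H3K27me3 and CTCF, each from tissue pooled over embryos. A HOXA13 and a HOXD13 list came from wild type whole forelimb at an earlier stage (E11.5 by the methods, E11 by the names of the lists), so HOX13 binding was not measured separately in distal and proximal cells.

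C-DOM holds enhancers that drive Hoxd13 and its neighbours in the future digits. H3K27ac is a histone mark of active enhancers and promoters, and H3K27me3 is the mark left by Polycomb on silenced chromatin. HOXA13 and HOXD13 (together HOX13) are homeodomain transcription factors of the distal limb bud, and CTCF is a zinc finger protein that anchors chromatin loops. II1 (chr2:74075307-74075849, 543 bp) is the C-DOM enhancer that the study relocated. It is intergenic, and the nearest gene, the long noncoding RNA gene A630050E04Rik, lies 25075 bp away.

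Without replicates there is no estimate of biological spread, and no difference below was tested. A share is given with its 95% Wilson interval, which covers counting error only. The fold is the peak caller's enrichment over a background taken from the surrounding 10 kb or the whole library, so a peak inside a broadly marked stretch has a low fold. The level is the number of fragments over a summit divided by the lowest background of its list, and it does not fall when the surroundings are marked. The level and the local background were solved from the fold and the p-value of each row, and all 279 members gave a solution. Read depths are not held in the peak lists and were not used here.

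The DNA under the strongest HOX13 summits is shown for what it shares and where it differs. The sequences below are the 200 bases around the HOXD13 summit inside II1 (chr2:74075664-74075863, which runs past the right edge of II1) and around the 4 HOXD13 regions of highest fold in C-DOM, on the plus strand of mm10. Clusters are runs of H3K27ac and HOX13 regions, as described further on, numbered from the far end of C-DOM. Capitals mark CNATAAA or CTCGTAAA, in either orientation (TTTATNG and TTTACGAG on the plus strand), 2 forms that cannot match at the same position.
II1, chr2:74075664-74075863: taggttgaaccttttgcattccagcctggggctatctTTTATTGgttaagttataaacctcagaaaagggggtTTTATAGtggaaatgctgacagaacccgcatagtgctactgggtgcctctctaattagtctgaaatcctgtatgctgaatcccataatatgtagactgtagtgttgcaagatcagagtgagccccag
Cluster 29, chr2:74380969-74381168: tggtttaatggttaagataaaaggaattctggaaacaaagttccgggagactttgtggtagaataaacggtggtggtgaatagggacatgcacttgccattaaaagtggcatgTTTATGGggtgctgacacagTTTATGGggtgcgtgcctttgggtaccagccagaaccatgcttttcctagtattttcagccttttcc
Cluster 18, chr2:74190744-74190943: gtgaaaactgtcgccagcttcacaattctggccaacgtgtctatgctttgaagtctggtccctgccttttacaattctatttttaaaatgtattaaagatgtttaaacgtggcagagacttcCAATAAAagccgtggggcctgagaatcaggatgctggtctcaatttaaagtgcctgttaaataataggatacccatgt
Cluster 35, chr2:74451329-74451528: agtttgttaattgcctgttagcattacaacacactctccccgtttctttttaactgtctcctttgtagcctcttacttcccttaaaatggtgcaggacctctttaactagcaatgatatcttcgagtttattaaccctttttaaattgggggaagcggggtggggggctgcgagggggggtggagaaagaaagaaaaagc
Cluster 38, chr2:74486441-74486640: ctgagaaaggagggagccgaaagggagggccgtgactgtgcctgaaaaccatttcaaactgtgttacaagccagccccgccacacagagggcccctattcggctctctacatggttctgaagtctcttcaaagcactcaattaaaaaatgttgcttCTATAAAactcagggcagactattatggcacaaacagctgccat

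The II1 window held 2 matches, 21 and 57 bp from the HOXD13 summit, both on the minus strand. The whole element held 3. The study's own search, with motifs learned from HOX13 binding data, found more sites in II1, most of them near the summit. The letter matches therefore need not be the study's sites. The window of cluster 29 also held 2, at 13 and 33 bp, again both on the minus strand. The windows of clusters 18 and 38 held 1 each, and that of cluster 35 held none, although its fold was the third highest. Of the 71 HOXD13 regions of C-DOM, 35 had a match within the 200 bases (49.3%, 38.0 to 60.7%), against 40.5% over the series. For HOXA13 it was 31 of 79 (39.2%, 29.2 to 50.3%), against 40.3% over the series. The same windows on DFL H3K27ac regions that carried no HOX13 region held a match in 5 of 28 (17.9%, 7.88 to 35.6%), against 4.31% over the series. The GC content of these last windows was higher, with a median of 46.25% in C-DOM and 53.0% over the series, against 41.0% in the HOXD13 windows of C-DOM.

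Along C-DOM the acetylated regions were mostly those of the digit side. DFL had 73 H3K27ac regions and PFL had 25, with 0 H3K27me3 regions in DFL and 9 in PFL. There were 12 and 10 CTCF regions, 79 HOXA13 regions and 71 HOXD13 regions. Over the series, DFL and PFL had 59804 and 69503 H3K27ac regions, 9083 and 13873 H3K27me3 regions, and 54673 and 52801 CTCF regions. The whole HOXA13 and HOXD13 lists held 66761 and 52660 regions. Of the 279 members, 246 were intergenic. The interval is poor in genes, and Lnpk (chr2:74520291-74579435), which encodes a protein that shapes the endoplasmic reticulum, is the protein-coding gene within it. Of the DFL H3K27ac regions, 49 of 73 had no overlapping PFL region (67.1%, 55.7 to 76.8%), against 26.7% over the series. Of the PFL regions, 2 of 25 had no DFL region (8%, 2.22 to 24.97%), against 38.1% over the series. By fold the leading DFL regions were those at Lnpk (chr2:74577798-74579605, fold 4.96), at the far end in cluster 1 (chr2:73952138-73953172, 4.604) and at chr2:74027401-74028508 in cluster 6 (4.39). The leading PFL regions were at Lnpk (chr2:74578177-74579632, fold 9.31), in cluster 45 (chr2:74620090-74621303, 5.08) and in cluster 35 (chr2:74451209-74451988, 4.33). Both PFL regions without a DFL region, at chr2:74267170-74267451 and chr2:74354607-74354922, were weak, with levels of 2.61 and 2.105.

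**Figure D1:**
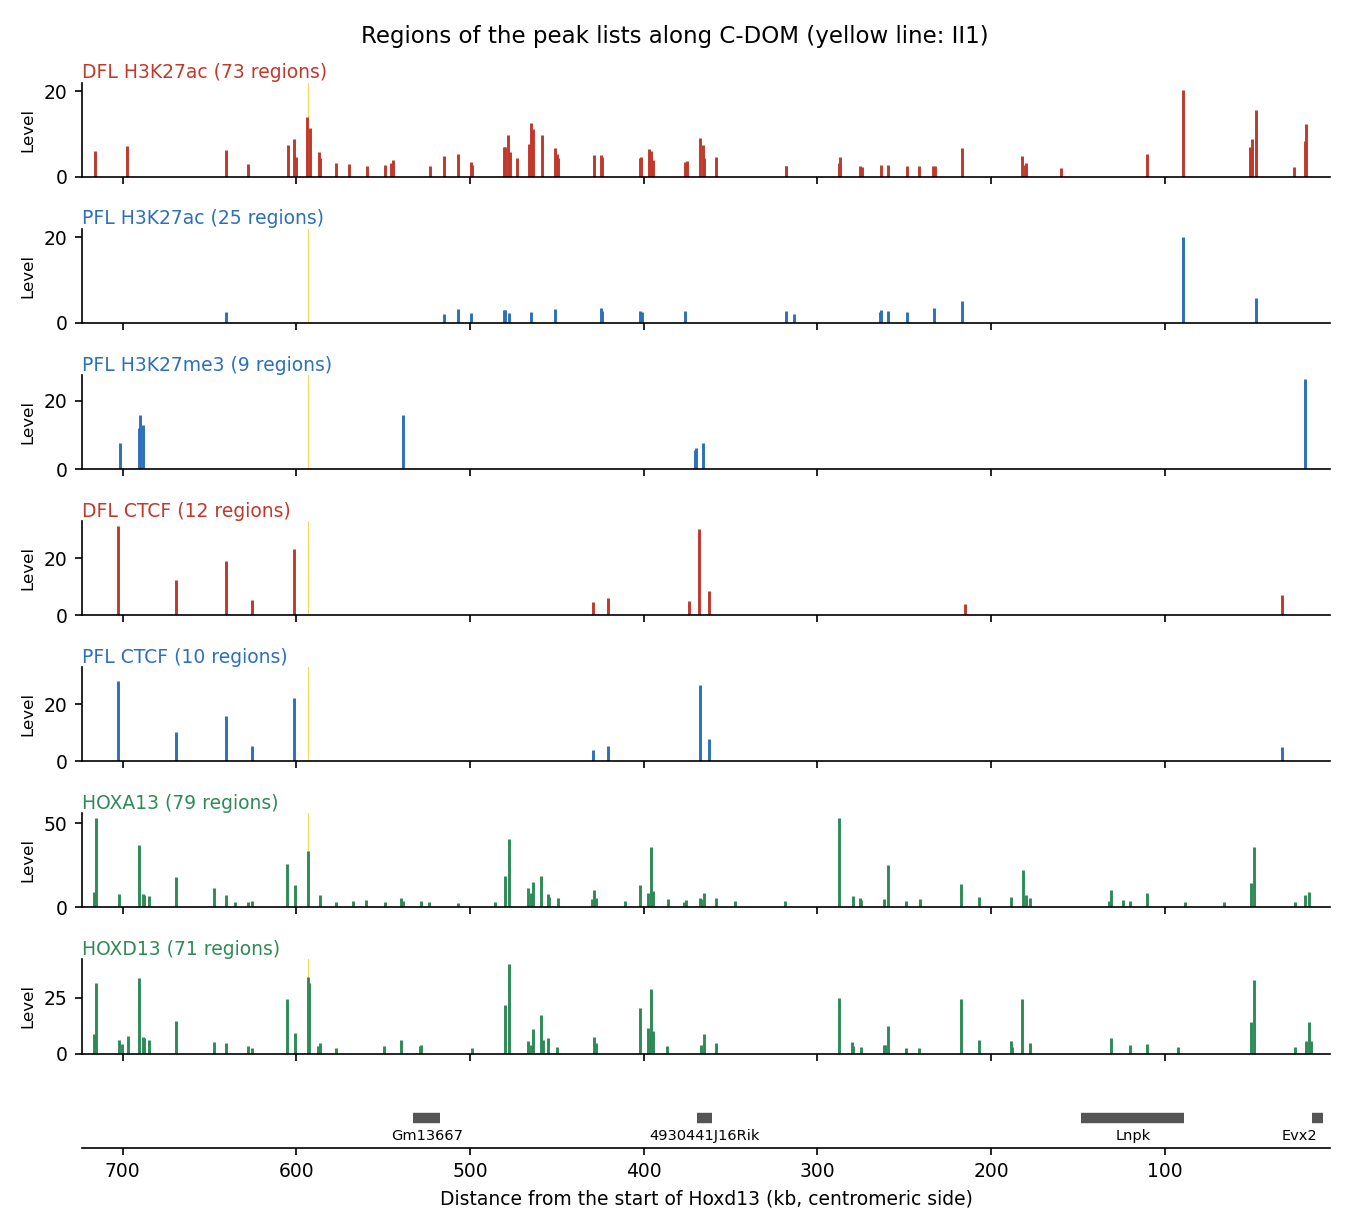
Members of 7 lists along C-DOM, by distance from the start of Hoxd13 in kb, with the level at the highest summit (summit fragments over the lowest background of the list) as the height of each line. The DFL H3K27me3 list had 0 members. The yellow line is II1 and grey bars are genes. DFL H3K27ac (red, 73 regions) runs through the landscape, while PFL H3K27ac (blue, 25 regions) reaches a level of 20.03 at Lnpk and 5.72 at most elsewhere.

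The labels of the pieces were checked against H3K27ac around marker genes. Covered length within 50 kb was larger in DFL at 5 of 6 distal genes and larger in PFL at 5 of 6 proximal genes. The exceptions were Sall3 and Hoxa11. Hoxd13 is among the distal genes, with 19283 bp in DFL and 18305 bp in PFL, and its window reaches into C-DOM. The covered length was larger in PFL at 3 of 3 muscle and 3 of 3 endothelial genes and at 2 of 3 blood genes. It was larger in DFL at 2 of 3 ectoderm genes, and divided at the neural genes with 1 each way. At the muscle genes it came to 2107 bp in DFL and 6818 bp in PFL, with 0 and 2 of 3 promoters acetylated, and at the endothelial genes to 4847 bp and 8095 bp, with 3 of 3 promoters acetylated in both. The part of other cell types in the differences of C-DOM was not tested.

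H3K27ac and HOX13 regions lay in runs. Joining regions of both kinds across gaps of up to 5 kb gave 47 clusters, which took up 23.0% of C-DOM. They were 315 to 17690 bp long (median 1832 bp). The longest stretch without one was 28457 bp, from chr2:74321168 to chr2:74349626. DFL H3K27ac was present in 36 clusters and PFL H3K27ac in 16, and all of these 16 held DFL H3K27ac too. The 8 clusters with most DFL H3K27ac held 50.1% of its covered length. HOXA13 was present in 43 clusters, HOXD13 in 36 and both in 35. By distance, the stretch between 400 and 500 kb from Hoxd13 held 19 DFL regions over 9762 bp and 11 PFL regions over 3706 bp, and that between 100 and 200 kb held 5 DFL regions over 2811 bp and 0 PFL regions. The combination of DFL H3K27ac, both factors and no PFL H3K27ac was found in 17 clusters, II1's among them. DFL and PFL H3K27ac with both factors were held by 10 clusters. Clusters were built from these lists and in C-DOM alone, so the cluster counts have no share over the series beside them.

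**Figure D2:**
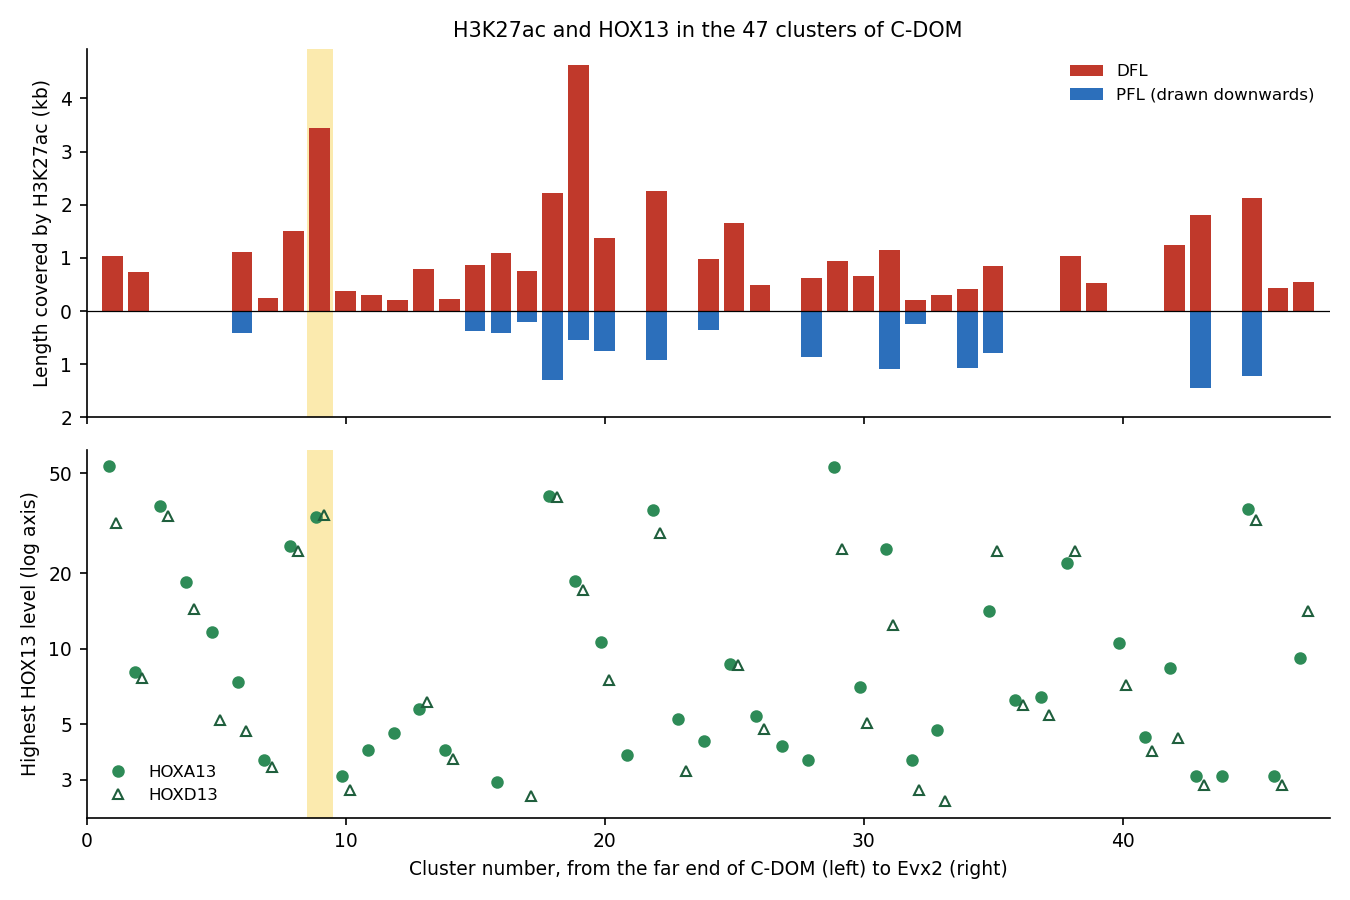
Length covered by H3K27ac in kb, in DFL (upward bars) and PFL (downward bars), and the highest HOXA13 (circles) and HOXD13 (triangles) level on a log axis, in each of the 47 clusters. The shaded cluster 9 holds II1, with 3439 bp in DFL and 0 in PFL. Cluster 19 has the longest DFL coverage (4621 bp).

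Cluster 19 (chr2:74201473-74219162), 458 kb from Hoxd13, was the longest and had the most DFL H3K27ac, 7 regions over 4621 bp. PFL had 2 regions over 551 bp there, and HOXA13 and HOXD13 had 7 regions each. Its highest H3K27ac level was 12.49 in DFL and 3.28 in PFL. Cluster 18 (chr2:74182421-74195194) had 5 DFL regions over 2212 bp and 3 PFL regions over 1288 bp, and it held the highest HOXD13 level of C-DOM (40.1) beside a HOXA13 level of 40.6. Cluster 22 (chr2:74265783-74274061) had 2257 bp in DFL against 918 bp in PFL, with H3K27ac levels of 6.40 and 2.69.

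Cluster 9, which holds II1, and cluster 8 next to it (chr2:74062236-74067969) had no PFL H3K27ac. Cluster 8 had 3 DFL regions over 1514 bp with a level of 8.81, a HOXA13 level of 25.7 and a HOXD13 level of 24.5, and a strong CTCF site in both pieces. The clusters with H3K27me3 in PFL included some with little H3K27ac. Cluster 2 (chr2:73965818-73971672) had 1 DFL H3K27ac region of 728 bp at a level of 7.20, and cluster 13 (chr2:74118907-74129755) had 3 over 796 bp at a level of up to 3.92. Cluster 25 (chr2:74300558-74303379), which overlaps an intron of the noncoding gene 4930441J16Rik, also had no PFL H3K27ac. Its 3 DFL regions covered 1650 bp at a level of up to 9.05.

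The clusters nearest the genes differed from each other. Cluster 43 (chr2:74575981-74579948) covers the Lnpk promoter, and here the pieces had nearly the same H3K27ac level, 20.17 in DFL and 20.03 in PFL, with low HOXA13 (3.11) and HOXD13 (2.85) levels. In cluster 45 (chr2:74617336-74621378), 48.95 kb from Hoxd13, DFL had 3 regions over 2123 bp and a level of 15.7, while PFL had 1 region over 1214 bp and a level of 5.72. Its HOXA13 level was 35.9 and its HOXD13 level 32.7. Cluster 47 (chr2:74648792-74652572), 419 bp from Evx2, had 2 short DFL regions with 550 bp in all. Their folds were 1.77 and 1.61, among the lowest of the DFL members, but their levels were 12.3 and 8.41, since the local background was 6.93 and 5.19 times the lowest.

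Around II1 the HOXA13 and HOXD13 summits nearly coincided, and H3K27ac summits lay to either side of the HOX13 summits inside the element. The HOXA13 and HOXD13 summits inside the element, at 74075769 and 74075764, had levels of 33.4 and 31.4. A further pair of summits about 1 kb to the left, outside II1, had levels of 26.1 for HOXA13 (74074787) and 34.0 for HOXD13 (74074798). The HOX13 summit inside II1 lay between 2 separate DFL H3K27ac regions, chr2:74073287-74075544 and chr2:74075893-74076228. Their highest summits, at 74075320 and 74076074, had levels of 14.0 and 11.4, on a local background of 3.97 and 4.04 times the lowest. The summit at 74075320 lay inside II1, near its left edge, and that at 74076074 lay outside. Farther right, around 74081137 and 74082168, the cluster held 2 weaker H3K27ac regions with levels of 5.76 and 4.40. The nearest PFL H3K27ac region was 47359 bp from II1.

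**Figure D3:**
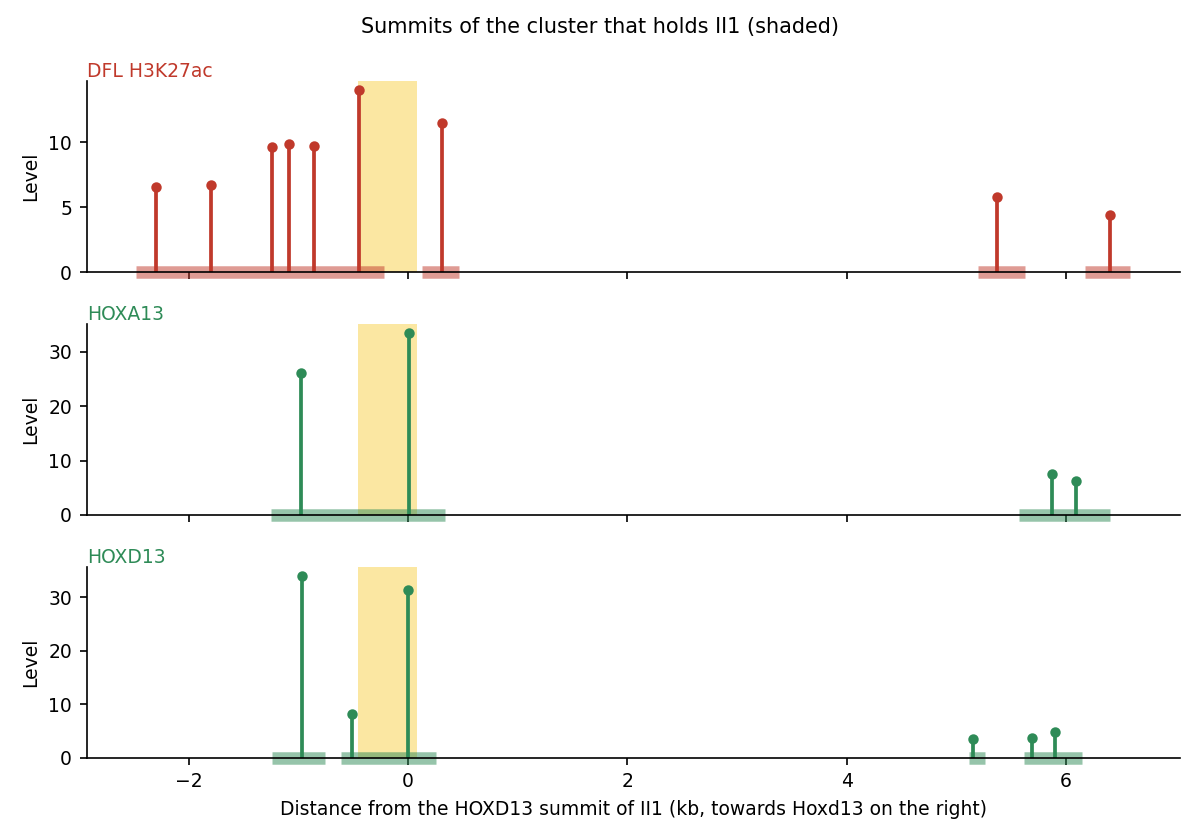
Level at each summit of cluster 9, by distance in kb from the HOXD13 summit of II1, for DFL H3K27ac, HOXA13 and HOXD13. Thick bars on the axis are the regions and the shaded band is II1. The HOX13 summits of II1 (levels 33.4 and 31.4) stand between DFL H3K27ac summits with levels of 14.0 and 11.4.

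Summit distances were also taken over C-DOM. The nearest HOXA13 summit was a median of 29.5 bp from the HOXD13 summit (n = 60 overlapping regions), with a median of 34.0 bp over the series. The nearest DFL H3K27ac summit was a median of 208 bp away (n = 31), with 208 bp over the series.

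HOX13 and DFL H3K27ac overlapped often in C-DOM. Of the DFL H3K27ac regions, 45 of 73 overlapped a HOXA13 or HOXD13 region (61.6%, 50.2 to 71.9%), against 38.7% over the series. In T-DOM, the telomeric landscape of proximal limb enhancers, it was 19 of 26 (73.1%, 53.9 to 86.3%), so this share did not set C-DOM apart. Of the PFL regions in C-DOM it was 12 of 25 (48%, 30.03 to 66.5%), against 30.5% over the series and 28 of 54 in T-DOM (51.9%, 38.9 to 64.6%). The DFL regions without a PFL counterpart overlapped HOX13 in 32 of 49 (65.3%, 51.3 to 77.1%), against 32.5% over the series. Those with one did so in 13 of 24 (54.2%, 35.1 to 72.1%), against 40.9% over the series.

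Seen from the factors, the landscapes differed more. The merged HOX13 regions of C-DOM numbered 90, of which 40 overlapped DFL H3K27ac (44.4%, 34.6 to 54.7%), against 28.3% over the series and 16 of 95 in T-DOM (16.8%, 10.6 to 25.6%). In contrast, 10 of the 90 overlapped PFL H3K27ac (11.1%, 6.15 to 19.3%), against 26.8% over the series and 28 of 95 in T-DOM (29.5%, 21.2 to 39.3%). The merged HOX13 regions were similar in number in the 2 landscapes, but the H3K27ac regions were not. C-DOM had 73 in DFL and 25 in PFL, and T-DOM had 26 in DFL and 54 in PFL. These shares depend on those numbers, and a property of HOX13 binding itself was not tested. The factors shared most of their regions. Of the HOXA13 regions 56 of 79 overlapped a HOXD13 region (70.9%, 60.1 to 79.7%), against 62.0% over the series. Of the HOXD13 regions 60 of 71 overlapped a HOXA13 region (84.5%, 74.3 to 91.1%), against 80.8% over the series.

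The clusters with the strongest HOX13 regions differed in their H3K27ac. The HOXA13 region of highest fold, chr2:74380615-74381384 in cluster 29, had a fold of 17.2 (rank 150 of 66761) and a level of 52.9, and the HOXD13 region there, chr2:74380596-74381324, had a fold of 12.3 (rank 816 of 52660). The H3K27ac level of this cluster was 4.56 in DFL, and PFL had no region. Cluster 1 at the far end had a HOXA13 level of 53.2 and a DFL H3K27ac level of 5.92. Cluster 31, with the third highest HOXA13 fold (9.99), had H3K27ac levels of 2.88 in DFL and 3.03 in PFL. Cluster 3 (chr2:73977265-73983565) had HOXA13 and HOXD13 levels of 37.0 and 33.7 and no H3K27ac in either piece. Others were high in both. Clusters 45, 9 and 18 had HOXA13 levels of 35.9, 33.4 and 40.6 and DFL H3K27ac levels of 15.7, 14.0 and 9.69.

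In all, 11 clusters had HOX13 and no H3K27ac. A cluster without H3K27ac holds HOX13 by the way clusters were built. Over the 32 clusters with both, Spearman's rho between the highest HOXA13 level and the highest DFL H3K27ac level was 0.52. Over the 13 clusters with HOXA13 and PFL H3K27ac, rho with the PFL level was 0.11. These 13 are only a part of the 32, so the rho values for DFL and PFL cannot be compared. Each highest level was taken over all regions of a cluster, and clusters differ in their number of regions. Between HOXA13 and HOXD13 levels rho was 0.94 (35 clusters). These are descriptions over clusters whose values come from the same few libraries. The 27 acetylated clusters with both factors had a median of 1035 bp of DFL H3K27ac (210 to 4621 bp) and a median highest level of 5.28. The other 9 acetylated clusters had a median of 624 bp (217 to 1086 bp) and a median level of 3.04. Cluster length was not taken into account, and a longer cluster can hold more regions of every list.

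**Figure D4:**
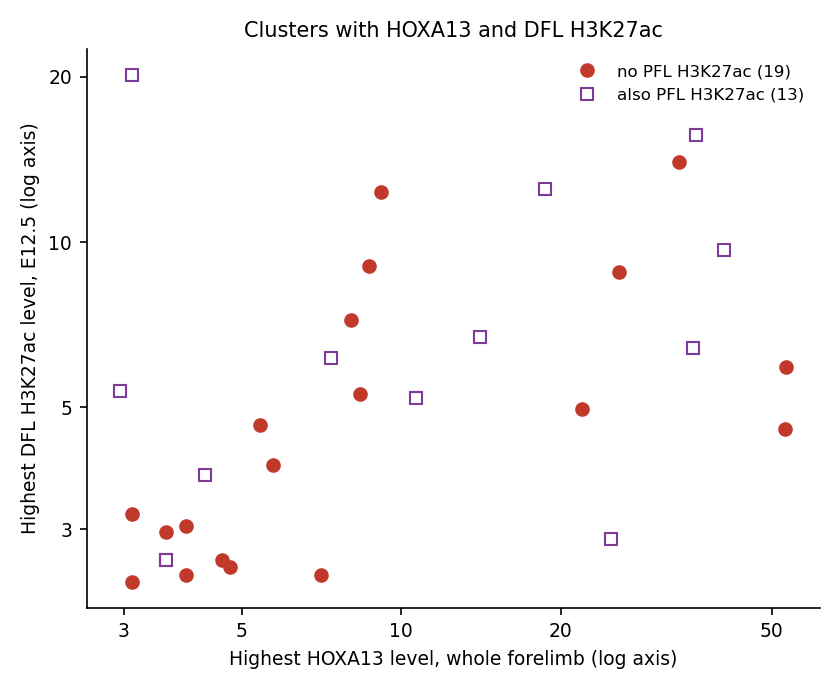
Highest HOXA13 level (E11.5 whole forelimb) against highest DFL H3K27ac level (E12.5) in the 32 clusters with both, on log axes. Filled circles are the 19 clusters without PFL H3K27ac and open squares the 13 with it. The open square at the upper left is the Lnpk promoter (HOXA13 3.11, H3K27ac 20.2).

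Where both pieces had H3K27ac, its level was mostly higher in DFL. The 24 DFL regions with a PFL counterpart had a median ratio of DFL to PFL level of 1.58 (0.719 to 4.94), and the DFL level was higher in 19 of 24, against 30.5% over the series, where the median ratio was 0.892. Some neighbouring DFL regions share a PFL region. The 13 with a HOX13 region had a median ratio of 1.94 and the 11 without one a median of 1.01, with no such split over the series beside them. The largest ratio, 4.94, was at chr2:74202731-74204280 in cluster 19, with levels of 12.49 and 2.53. The next, 3.97, was at chr2:74190037-74190773 in cluster 18, with levels of 9.69 and 2.44.

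The ratio also differed along the landscape. Beyond 320 kb from Hoxd13, a division chosen after the values were seen, all 14 regions had the higher level in DFL (1.24 to 4.94, median 1.98). Within 320 kb it was 5 of 10 (0.719 to 2.74, median 0.994), and the highest of these was the region of cluster 45 nearest the genes. Overlap with HOX13 and position were not separated. The regions beyond 320 kb include some without HOX13, such as chr2:74152865-74153730 (2.36) and chr2:74217343-74217679 (2.02). Within 320 kb, chr2:74349984-74350285 had HOX13 and a ratio of 0.921. The fold gave another picture, since PFL had the higher fold in 17 of the 24 pairs, 12 of which had the higher level in DFL. At chr2:74187654-74188213, for example, the fold was 2.50 in DFL and 2.56 in PFL, and the level was 7.04 and 2.95. The counts by fold have no share over the series beside them, so they cannot be called particular to C-DOM. Relative to the lowest of its list, the local background of the H3K27ac regions of C-DOM had a median of 1.73 in DFL and of 1 in PFL.

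**Figure D5:**
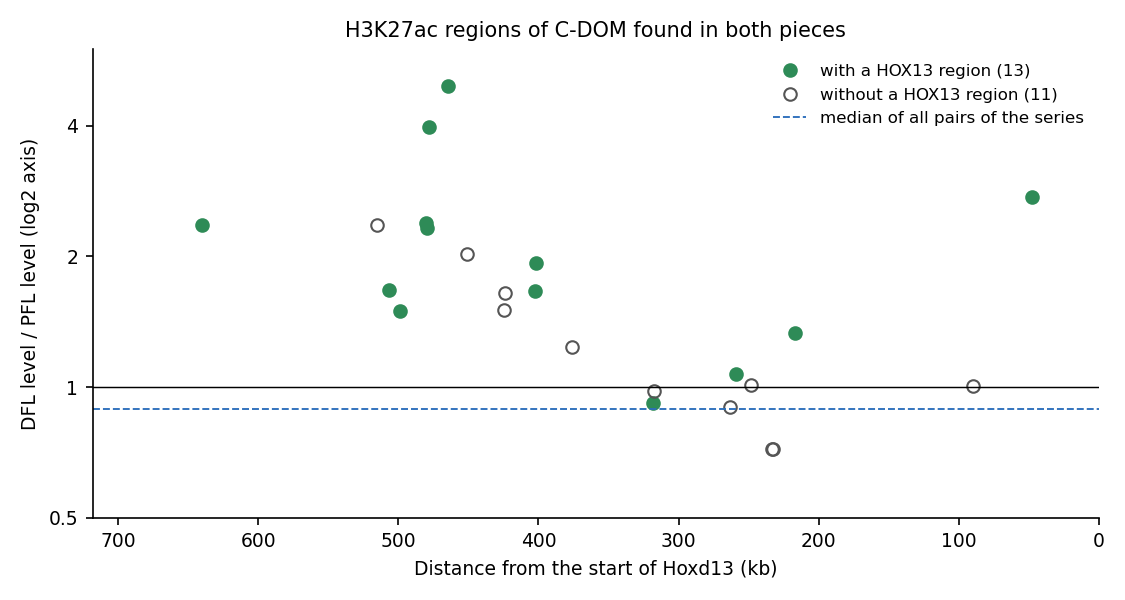
Ratio of DFL to PFL H3K27ac level (log2 axis) in the 24 DFL regions of C-DOM that overlap a PFL region, by distance from the start of Hoxd13 in kb. Green points overlap a HOX13 region, and the dashed line is the median ratio over the series (0.892). All 14 points beyond 320 kb lie above 1.

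H3K27me3 was found in C-DOM in PFL alone. The 9 PFL regions had no DFL counterpart (100%, 70.1 to 100%), against 44.0% over the series. By the study's methods the PFL library was sequenced more deeply than the DFL library, and its lowest background was higher (4.75 against 3.06 fragments). Depth and piece cannot be told apart here. The region of highest level (26.3) was next to Evx2, at chr2:74648444-74649536, on a local background 15.1 times the lowest, so that its fold was 1.73. In DFL it was overlapped by the H3K27ac region of level 8.41, and the one of level 12.3 followed to its right. The region of highest fold (4.48, level 15.8) was at chr2:74129057-74130900 over the long noncoding RNA gene Gm28640. A group of 3, between chr2:73977184 and chr2:73979981 in cluster 3, had levels of 12.01, 15.8 and 13.1 and no H3K27ac. That at chr2:73977184-73977854 overlapped strong HOX13 regions, with folds of 9.12 for HOXA13 and 9.29 for HOXD13. That at chr2:73978178-73978638 met the edge of the same HOXD13 region and no HOXA13 region. The HOX13 regions at chr2:73979534-73979981 had low folds, 1.92 for HOXA13 and 1.91 for HOXD13. A further group of 3 lay around the CTCF site of highest fold, at chr2:74297798-74298171, chr2:74298274-74298741 and chr2:74301956-74302467, with levels of 5.69, 6.32 and 7.59. The remaining region, chr2:73966672-73967218, had a level of 7.80 and lay 511 bp from a CTCF region. HOX13 regions overlapped 6 of the 9 (66.7%, 35.4 to 87.9%), against 12.9% over the series. The group of 3 in cluster 3 is among these 6. In T-DOM it was 5 of 17 (29.4%, 13.3 to 53.1%), and in the HoxD gene cluster 3 of 22 (13.6%, 4.75 to 33.3%). An overlap of 1 bp with a HOX13 region of any fold counted, and no stricter rule was tried for this share. The region over Gm28640 met only a HOXA13 region of fold 2.29. That next to Evx2 met HOXA13 and HOXD13 regions of fold 2.44 and 2.09, and that at chr2:74301956 met regions of fold 4.13 and 4.98.

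CTCF sites were few and nearly the same in both pieces. Of the 12 DFL regions 10 had a PFL counterpart (83.3%, 55.2 to 95.3%), against 88.7% over the series, and all 10 PFL regions had a DFL one (100%, 72.2 to 100%), against 91.8% over the series. The 2 DFL sites without one, chr2:74294272-74294553 and chr2:74453354-74453716, were weak, with levels of 5.10 and 3.86. The sites of highest fold lay in the part of C-DOM far from Lnpk, Evx2 and Hoxd13. The 60 bases around the summits of the 3 with the highest DFL fold are given below, with matches to CCNNNAGNNGGC (GCCNNCTNNNGG on the other strand) in capitals, a core that leaves out much of the longer motif that CTCF reads.
Site 9, chr2:74300430-74300489: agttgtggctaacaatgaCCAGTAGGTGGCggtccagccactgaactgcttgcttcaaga
Site 1, chr2:73965770-73965829: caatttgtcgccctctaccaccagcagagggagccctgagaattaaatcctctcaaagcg
Site 5, chr2:74066816-74066875: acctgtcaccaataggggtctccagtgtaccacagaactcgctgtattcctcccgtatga

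Site 9, in an exon of 4930441J16Rik, had the highest fold in both pieces (16.4 in DFL and 16.1 in PFL), and its match ended 1 bp from the DFL summit. Sites 1 and 5 had folds of 15.8 and 14.8 in DFL and of 13.8 and 15.2 in PFL, and the core was not found in their windows. Within 100 bases of the summit the core was found in 4 of 12 DFL regions (33.3%, 13.8 to 60.9%), against 44.5% over the series, and in 3 of 10 PFL regions (30%, 10.8 to 60.3%), against 44.7% over the series. In the 3 single matches, the one at site 9 was on the plus strand and those at chr2:74305763 and chr2:74453354 were on the minus strand. Summits of shared sites were a median of 6.50 bp apart between the pieces. With the regions of both pieces merged, HOX13 regions overlapped 6 of the 12 CTCF sites (50%, 25.4 to 74.6%), against 12.3% over the series. In T-DOM it was 8 of 26 (30.8%, 16.5 to 49.99%), and in the HoxD gene cluster 3 of 9 (33.3%, 12.1 to 64.6%). Both shares lay within the C-DOM interval, so this overlap did not set C-DOM apart from them. DFL H3K27ac overlapped 3 of the 12 DFL CTCF regions (25%, 8.89 to 53.2%), against 14.3% over the series.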

How the data were processed

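The deposited files were 8 MACS2 peak lists, 6 of samples and 2 (HOXA13 and HOXD13) of no sample. By the study's methods, the authors trimmed reads with cutadapt, mapped them to mm10 with Bowtie, kept confident alignments with SAMtools, and called peaks at a q of 0.05 with 1 read kept per position and no control, which caps the pileup at strong summits. The deposited values are fold (a ratio), −log10 p, −log10 q and a score, which was not used. There was 1 library per list. The lists hold no read counts, and the sequencing depths that the study's methods state were not used, beyond that PFL H3K27me3 was sequenced more deeply than DFL H3K27me3.

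Rows of the same interval were collapsed, keeping the summit of highest fold. Pileup and background were solved from fold and −log10 p. Overlap of 1 bp counted as shared. Clusters joined H3K27ac and HOX13 regions across gaps of up to 5 kb. Motifs were matched as letters in 200 bases (HOX13) or 100 bases (CTCF) around summits of the GRCm38.p6 genome, and genes came from GENCODE. Python 3.11.15, numpy 2.4.6, pandas 2.3.3, scipy 1.17.1 and matplotlib 3.10.9 were used, and the solver and overlaps were tested on simulated data. Described singly were the 8 clusters with most DFL H3K27ac, that of II1, all with PFL but no DFL H3K27ac (0), all with H3K27me3, and the 3 regions of highest fold in each list. Regions of interest, lists and alternatives were chosen with earlier results of these data known. No test was made.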

Additional observations from a re-analysis of the deposited data

How the results depend on the processing

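No paired analysis was possible because each mark had 1 library per piece, and for the same reason no replicate could be left out. Of 38 alternatives over 17 results, 22 gave a value within the counting interval or within 1.5 times the count. With −log10 q of at least 5, the H3K27ac regions of C-DOM fell to 44 in DFL and 9 in PFL, and with a fold of at least 3 to 20 and 7. The share of DFL regions without a PFL region was 84.1% at −log10 q of at least 5. The share of DFL H3K27ac regions with HOX13 was 35.6% where a HOX13 summit had to lie inside and 42.5% where both factors were required. The share of HOX13 regions with DFL H3K27ac was 62.2% when a distance of 1 kb sufficed. These shares under other rules were computed in C-DOM alone. The series shares given further up used all regions and an overlap of 1 bp, so the 2 kinds cannot be compared. PFL had 5 H3K27me3 regions at −log10 q of at least 5 and 5 with lists of equal size, and DFL had 0 in both. Gaps of 10 kb gave 20 clusters, 6 of them with DFL H3K27ac, both HOX13 factors and no PFL H3K27ac. The share of HOXA13 windows with a motif was 26.6% in 100 bases, against 26.1% over the series. Chosen after seeing the data, dividing level ratios by the series median moved the median ratio of DFL to PFL from 1.58 to 1.77. Taking the fold over the local background in place of the level reversed it to 0.911, with DFL higher in 7 of 24 regions, since the local background is higher in DFL.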
